A study of Mus musculus with 13 samples.

Results

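The 8 genes described here encode T-box transcription factors: Tbx1, Tbx2, Tbx3, Tbx4, Tbx5, Tbx15, Tbx18 and Tbx20. They were chosen by name, as factors that mark position in limb, trunk and lung mesenchyme, with earlier results of these data known. They make up 8 of the 23418 genes in the deposited mouse count table. All 8 passed the filter on low counts. The study asked whether fibro/adipogenic progenitors (FAPs), the mesenchymal progenitors that lie between muscle fibres, can pass between animals with a joined circulation, and which of their transcripts act on muscle stem cells. For the second question, bulk RNA was sequenced from FAPs of muscle (4 libraries, numbered 2 to 5), FAPs of lung (5 libraries, 1 to 5) and mouse embryonic fibroblasts (MEFs, 4 libraries, 1 to 4). The labels name tissue and cell type for these groups. The sources used here do not give genotype, strain, age, sort gate, culture or the muscle sampled, nor whether libraries of a group came from separate animals or cultures, so the p-values measure only the spread between these libraries.

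T-box factors bind DNA through a shared domain, the T-box, and act as activators or repressors of the genes that shape limbs, heart, lung and pharynx in the embryo. Many remain expressed in adult connective tissue, in sets that differ by body site. Tbx4 and Tbx5 are known for starting limb buds and, together, for the growth of the lung through Fgf10 in its mesenchyme. Tbx2 and Tbx3 are close relatives that mostly repress transcription. Tbx15 and Tbx18 form another related pair, known in skeleton, dermis, muscle and, for Tbx18, in the outer layer of the heart and in mural cells of vessels. Tbx20 and Tbx1 are best known in the heart and the pharyngeal arches.

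Total counts per library ranged from 41327292 to 44699463 for muscle, from 28636183 to 35464622 for lung and from 33756915 to 41466585 for MEFs. Levels below are CPM, counts relative to library size, scaled by TMM, whose factors were 0.777 to 0.809 for muscle, 0.985 to 1.16 for lung and 1.15 to 1.22 for MEFs. The summed level of 5 FAP markers (Pdgfra, Ly6a, Cd34, Dpp4, Pi16) was 4754 to 5458 CPM in muscle FAPs, 4259 to 8807 CPM in lung FAPs and 114.5 to 162 CPM in MEFs, and no marker of this list was at 0 in any group. Libraries of each group also held transcripts used as markers of other cell types, and which cells these came from was not tested. In muscle FAPs 4 tenocyte markers summed to 851 to 1641 CPM, of which Thbs4 had a mean of 1188 CPM. That sum was 7.82 to 58.3 CPM in lung FAPs and 39.5 to 42.3 CPM in MEFs. Blood cell markers (6) summed to 114 to 431 CPM in MEFs, 26.1 to 642 CPM in lung FAPs and 6.13 to 8.37 CPM in muscle FAPs. In lung FAPs 6 mesothelial markers summed to 415 to 948 CPM, against 1.21 to 28.2 CPM in muscle FAPs and 120 to 157 CPM in MEFs. In the same libraries 10 pericyte and smooth muscle markers summed to 562 to 2158 CPM. That sum was 97.7 to 103.8 CPM in muscle FAPs and 2076 to 3690 CPM in MEFs. Lung epithelial markers (6) ranged from 14.2 to 7972 CPM, with the top value in lung FAP 3. Lung FAP 2 held the group's highest level of 10 of 10 pericyte and smooth muscle markers, 6 of 6 endothelial markers and 7 of 8 cardiac muscle markers. Results that rest on lung FAP 2 or 3 are therefore given with and without them.

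The 8 genes lie at 6 places in the genome (GRCm38, the same assembly as mm10; GENCODE M21). Tbx2 (11:85832551-85841948, plus strand) and Tbx4 (11:85886422-85916097, plus strand) are neighbours on chromosome 11, separated by 44473 bases. Tbx3 (5:119670669-119684724, plus strand) and Tbx5 (5:119832668-119885219, plus strand) are neighbours on chromosome 5, separated by 147943 bases. Tbx1 lies at 16:18580979-18590671 (minus strand), Tbx15 at 3:99240381-99354259 (plus strand), Tbx18 at 9:87702800-87731260 (minus strand) and Tbx20 at 9:24718138-24774303 (minus strand). An antisense gene overlaps Tbx3 (Tbx3os1) and another overlaps Tbx15 (Gm43120), and an unclassified transcript on the other strand, D030062O11Rik, overlaps Tbx18. RefSeq lists non-coding genes that overlap Tbx1 (Gm35369) and Tbx5 (Gm5563) as well. The strand setting of the counting is not given, so reads of such partners cannot be told apart from those of the T-box genes.

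RefSeq (GRCm38.p6) start sites were matched for 4 of the 8 genes: Tbx1, Tbx4, Tbx18 and Tbx20. The 250 bases before the start are shown for 3 of these, chosen after their values were seen, for their group patterns: 1 higher in lung (Tbx4), 1 lower in lung (Tbx18) and 1 nearly silent in muscle (Tbx20). They are written 5′ to 3′ on the gene's strand, in lower case with CG dinucleotides, the sites of DNA methylation, in capitals. The Tbx4 window is chr11:85896515-85896764 (plus strand), upstream of a start that lies 10343 bases inside the longest gene model. The Tbx18 window is chr9:87731261-87731510 (minus strand) and overlaps an exon of D030062O11Rik. The Tbx20 window is chr9:24774304-24774553 (minus strand).
Tbx4: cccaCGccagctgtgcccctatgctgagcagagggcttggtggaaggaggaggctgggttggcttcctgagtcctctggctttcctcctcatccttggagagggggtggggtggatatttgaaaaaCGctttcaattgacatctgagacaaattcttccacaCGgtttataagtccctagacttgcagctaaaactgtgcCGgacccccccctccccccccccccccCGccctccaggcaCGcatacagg
Tbx18: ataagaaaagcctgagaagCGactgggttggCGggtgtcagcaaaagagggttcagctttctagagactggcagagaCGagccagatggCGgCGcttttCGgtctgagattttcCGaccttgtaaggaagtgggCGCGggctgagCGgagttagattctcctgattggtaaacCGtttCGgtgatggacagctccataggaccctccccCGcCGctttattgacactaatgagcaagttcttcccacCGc
Tbx20: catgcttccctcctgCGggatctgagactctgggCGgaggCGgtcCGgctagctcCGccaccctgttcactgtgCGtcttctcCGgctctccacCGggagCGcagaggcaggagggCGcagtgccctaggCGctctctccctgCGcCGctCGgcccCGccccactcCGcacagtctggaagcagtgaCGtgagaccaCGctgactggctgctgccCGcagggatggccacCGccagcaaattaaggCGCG
Tbx4 had 6 CG dinucleotides in this window, which is the median of 32851 RefSeq promoter windows of the same length, and a G+C content of 58.4%. Tbx18 had 15 at a G+C content of 54%, and 27.3% of the windows had at least as many. Tbx20 had 22 at 68.8%, and 14.8% of the windows had at least as many. The T-box core motif AGGTGT, searched on both strands (as AGGTGT and ACACCT), was not among the letters of these 3 windows, and 11.8% of all windows held it. Among the other matched starts, 1 of the 2 Tbx1 windows held it once.

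Between muscle and lung FAPs, 7 of the 8 genes passed the test at an adjusted p under 0.05, where 48.2% of the 15412 genes tested did. Since the 8 were chosen with earlier results of these data known, such counts describe them and do not test the set. Tbx15 and Tbx18 were higher in muscle FAPs (2 of 8, against 23.2% of all genes). Tbx1, Tbx2, Tbx4, Tbx5 and Tbx20 were lower in muscle FAPs (5 of 8, against 25% of all genes). The libraries of the groups did not overlap for 6 of the 8, all but Tbx1 and Tbx3, against 37.9% of all genes. Without lung FAPs 2 and 3, again 7 of the 8 passed, with Tbx3 called and Tbx1 not. The median log2 difference, muscle minus lung, was -2.30 over the 8 genes and -0.04 over all genes. In size, the median over all genes was 0.49 regardless of sign.

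Between muscle FAPs and MEFs, 4 of the 8 genes passed, where 73.5% of all genes did. Tbx5 and Tbx15 were higher in muscle FAPs (36.1% of all genes were), and Tbx1 and Tbx20 were lower (37.3% of all genes were). These same 4 genes had libraries that did not overlap, against 73.9% of all genes. The median log2 difference, muscle minus MEF, was -0.13 over the 8 and -0.04 over all genes. Between lung FAPs and MEFs, 6 of the 8 passed, where 74.4% of all genes did. Tbx2, Tbx4 and Tbx5 were higher in lung FAPs (37.8% of all genes were), and Tbx15, Tbx18 and Tbx20 were lower (36.6% of all genes were). For 5 of the 8 the libraries did not overlap, against 65.3% of all genes, and the median log2 difference, lung minus MEF, was 0.04 over the 8 and 0.02 over all genes. The 3 comparisons share libraries, so their values are set side by side and are not independent.

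**Figure D1:**
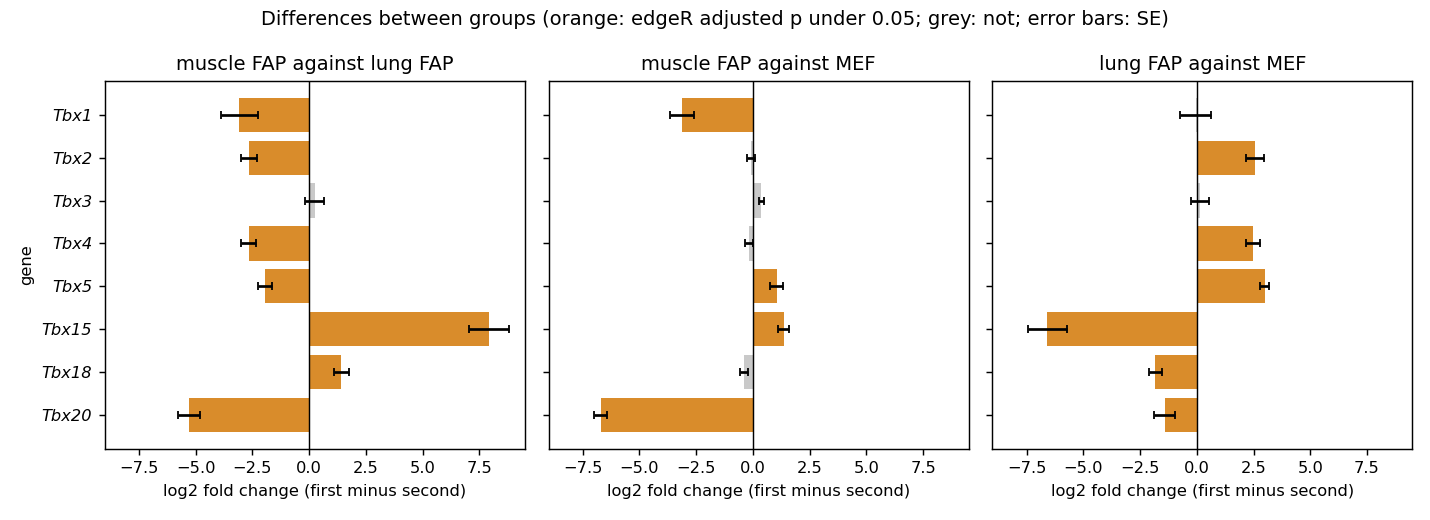
Log2 fold changes of the 8 T-box genes in the 3 comparisons, first group minus second, on horizontal axes of equal range. Error bars are the SE from the spread of log2 CPM between libraries within the compared groups, not from the edgeR fit. Orange bars passed the test at an adjusted p under 0.05 and grey bars did not; the longest bar is Tbx15 between muscle and lung FAPs at 7.94, and Tbx3 is grey in every panel.

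The scaling matters for small differences. With scaling by library size alone, the median of all genes moved by -0.41 in muscle against lung FAPs, by -0.58 in muscle FAPs against MEFs and by -0.17 in lung FAPs against MEFs. The share of called genes that were higher in the first group then went from 48.1% to 18.8% in the first of these comparisons, from 49.2% to 31.7% in the second and from 50.8% to 45.2% in the third. In muscle FAPs against MEFs, Tbx5 and Tbx15 were then no longer called and Tbx18 was, and the sign of Tbx3 turned, with the values given below.

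Tbx15 was the T-box gene with the widest range between groups. It is known for patterning the skeleton of the shoulder girdle and the skin, and for the glycolytic fibres of skeletal muscle. In muscle FAPs 2 to 5 its level was 199, 167, 235 and 118 CPM (179.8 ± 50.1, n = 4). In lung FAPs 1 to 5 it was 0, 0.799, 1.25, 0.365 and 1.23 CPM (0.730 ± 0.547, n = 5). Each muscle library thus lay far above each lung library, and lung FAP 1 had no read, which at its depth allows a level of up to 0.0859 CPM. In MEFs 1 to 4 Tbx15 was at 76.3, 73.2, 56.5 and 76.7 CPM (70.7 ± 9.60, n = 4), between the FAP groups and overlapping neither. The mean was 246-fold higher in muscle than in lung FAPs (log2 difference 7.94, SE 0.89, edgeR adjusted p = 6.61e-08) and 96.8-fold lower in lung FAPs than in MEFs (-6.59, SE 0.87, edgeR adjusted p = 3.71e-08). In bulk RNA, fewer cells that express a gene and less of its RNA per cell cannot be told apart. The difference from MEFs in muscle FAPs was 2.54-fold (log2 1.35, SE 0.24, edgeR adjusted p = 0.00708). That call was lost with library size alone (0.76, adjusted p = 0.0997), with the Wald test of DESeq2 (1.32, adjusted p = 0.0741) and with replicate number as a block (1.24, adjusted p = 0.0596).

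Tbx18, the close relative of Tbx15, was also lower in lung FAPs than in the other groups, by a smaller factor. It is known in the somites that form the vertebrae, in the mesenchyme of the ureter and in the outer layer of the heart. In muscle FAPs 2 to 5 it was at 26.5, 18.6, 28.5 and 18.6 CPM (23.0 ± 5.19). In lung FAPs 1 to 5 it was at 11.5, 3.77, 8.55, 9.83 and 9.33 CPM (8.60 ± 2.91), below every muscle library. In MEFs 1 to 4 it was at 30.6, 29.9, 28.2 and 32.8 CPM (30.4 ± 1.89), where the lowest library fell just under the highest muscle library. Tbx18 was 2.68-fold higher in muscle than in lung FAPs (log2 difference 1.42, SE 0.32, edgeR adjusted p = 0.000198) and 3.53-fold lower in lung FAPs than in MEFs (-1.82, SE 0.28, edgeR adjusted p = 6.20e-06). Between muscle FAPs and MEFs it did not pass (-0.40, SE 0.17, edgeR adjusted p = 0.159). It did so with library size alone (-0.98, adjusted p = 0.00115), in limma (-0.37, adjusted p = 0.0228) and when these groups were fitted by themselves (-0.36, edgeR adjusted p = 0.0391).

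The ratio of the pair differed in order between the groups. For this ratio, levels were divided by exon length (CPM per kb). Mean Tbx15 was 9.75 times mean Tbx18 in muscle FAPs (7.87 to 11.2 in single libraries). It was 2.90 times mean Tbx18 in MEFs (2.50 to 3.11) and 0.106 times in lung FAPs (0 to 0.265). The ranges of the 3 groups did not overlap.

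**Figure D2:**
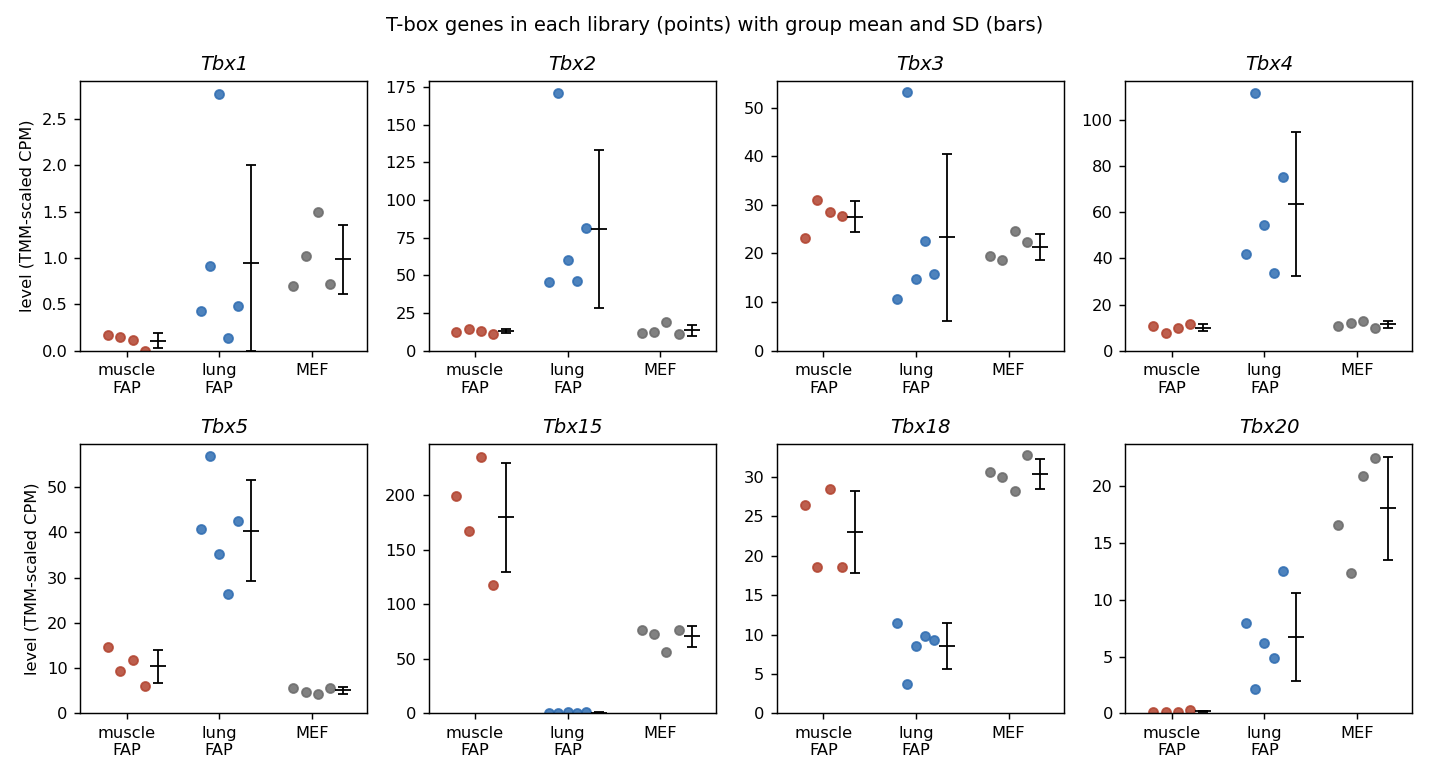
Level of each T-box gene (TMM-scaled CPM, linear axes that start at 0 and differ between panels) in every library, with the group mean and SD as bars beside the points (bars that would pass below 0 stop there). Tbx2, Tbx4 and Tbx5 are highest in lung FAPs (blue), Tbx15 in muscle FAPs (red) and Tbx20 in MEFs (grey), and in the Tbx2 and Tbx3 panels 1 lung library sits far above the rest.

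Tbx4, Tbx5 and Tbx2 were higher in lung FAPs than in both other groups. Tbx4 is known as a factor of hindlimb and lung mesenchyme. In lung FAPs 1 to 5 its level was 41.8, 112, 54.6, 33.7 and 75.3 CPM (63.4 ± 31.2). In muscle FAPs 2 to 5 it was 10.9, 7.66, 10.05 and 11.6 CPM (10.04 ± 1.71). MEFs 1 to 4 had 10.7, 12.0, 13.04 and 9.73 CPM (11.4 ± 1.46). Every lung library lay above every library of the other groups, which overlapped each other. Tbx4 was 6.32-fold lower in muscle than in lung FAPs (log2 difference -2.66, SE 0.33, edgeR adjusted p = 1.04e-05), and lung FAPs exceeded MEFs 5.58-fold (2.48, SE 0.32, edgeR adjusted p = 4.44e-06). Between muscle FAPs and MEFs the log2 difference was -0.18 (SE 0.16, edgeR adjusted p = 0.604).

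Tbx5, the forelimb and heart counterpart of Tbx4, was at 40.8, 56.9, 35.3, 26.3 and 42.5 CPM in lung FAPs 1 to 5 (40.3 ± 11.2). In muscle FAPs 2 to 5 it was at 14.7, 9.31, 11.7 and 6.07 CPM (10.4 ± 3.65). MEFs 1 to 4 had 5.65, 4.71, 4.27 and 5.61 CPM (5.06 ± 0.682). The 3 groups did not overlap, in the order lung FAPs, muscle FAPs, MEFs. Tbx5 was 3.86-fold lower in muscle than in lung FAPs (log2 difference -1.95, SE 0.33, edgeR adjusted p = 1.71e-05), and lung FAPs exceeded MEFs 7.97-fold (2.99, SE 0.21, edgeR adjusted p = 6.97e-08). Muscle FAPs exceeded MEFs 2.06-fold (1.05, SE 0.29, edgeR adjusted p = 0.00183), a call that library size alone did not give (0.47, adjusted p = 0.13).

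Tbx2, a repressor known for acting on cell cycle inhibitor genes and for its part in lung growth, was at 45.7, 171, 60.2, 46.3 and 81.5 CPM in lung FAPs 1 to 5 (80.9 ± 52.3). In muscle FAPs 2 to 5 it was at 12.7, 14.5, 13.2 and 11.2 CPM (12.9 ± 1.35). In MEFs 1 to 4 it was at 11.8, 12.5, 19.1 and 11.3 CPM (13.7 ± 3.64). All 5 lung libraries were above all others, with lung FAP 2 the highest. Tbx2 was 6.27-fold lower in muscle than in lung FAPs (log2 difference -2.65, SE 0.36, edgeR adjusted p = 7.18e-05), and lung FAPs exceeded MEFs 5.92-fold (2.57, SE 0.39, edgeR adjusted p = 2.88e-05). Between muscle FAPs and MEFs the difference was -0.08 (SE 0.19, edgeR adjusted p = 0.85).

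Tbx3, the nearest relative of Tbx2, did not share this pattern. Its level was 23.2, 31.0, 28.5 and 27.7 CPM in muscle FAPs 2 to 5 (27.6 ± 3.22). In lung FAPs 1 to 5 it was 10.7, 53.1, 14.7, 22.5 and 15.7 CPM (23.35 ± 17.2). MEFs 1 to 4 had 19.5, 18.7, 24.6 and 22.3 CPM (21.3 ± 2.72). Apart from lung FAP 2, which exceeded every other library, the lung libraries lay below all muscle libraries. The log2 difference was 0.24 in muscle against lung FAPs (SE 0.41, edgeR adjusted p = 0.617), 0.37 in muscle FAPs against MEFs (SE 0.13, edgeR adjusted p = 0.392) and 0.13 in lung FAPs against MEFs (SE 0.41, edgeR adjusted p = 0.751). Without lung FAP 2, Tbx3 was higher in muscle than in lung FAPs (0.81, edgeR adjusted p = 0.00239) and lower in lung FAPs than in MEFs (-0.45, edgeR adjusted p = 0.0399). In limma, which weights the libraries by quality, it was also higher in muscle than in lung FAPs (0.64, adjusted p = 0.0373) and than in MEFs (0.47, adjusted p = 0.0253). The fit of muscle FAPs and MEFs by themselves gave that last call too (0.41, edgeR adjusted p = 0.0081), while library size alone turned the sign against lung FAPs (-0.22, adjusted p = 0.668) and against MEFs (-0.20, adjusted p = 0.673).

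Tbx20, known for its part in heart muscle and endocardium, was nearly absent from muscle FAPs. Its level there was 0.146, 0.118, 0.144 and 0.269 CPM in libraries 2 to 5 (0.169 ± 0.0679), from 23 reads in all. In lung FAPs 1 to 5 it was 7.99, 2.14, 6.23, 4.88 and 12.5 CPM (6.75 ± 3.87). In MEFs 1 to 4 it was 16.6, 12.4, 20.9 and 22.5 CPM (18.1 ± 4.54). Every muscle library lay below every other library, and lung FAP 5 reached just above the lowest MEF library. Tbx20 was 39.9-fold lower in muscle than in lung FAPs (log2 difference -5.29, SE 0.46, edgeR adjusted p = 1.67e-06) and 107-fold lower in muscle FAPs than in MEFs (-6.72, SE 0.28, edgeR adjusted p = 3.74e-08). It was 2.68-fold lower in lung FAPs than in MEFs (-1.42, SE 0.46, edgeR adjusted p = 0.00253). The summed level of 8 cardiac muscle markers was 3.81 to 5.91 CPM in muscle FAPs, 40.7 to 238 CPM in lung FAPs and 10.4 to 17.7 CPM in MEFs, with none of the 8 at 0 in any group. Most of the lung sum was Actc1 (mean 96.0 CPM), while the other 7 had means of 0.352 to 2.95 CPM in lung FAPs, and Myl4 and Tnnt2 were higher in MEFs than in lung FAPs. The highest cardiac sum (238 CPM) was in lung FAP 2, which had the lowest Tbx20 of the lung libraries (2.14 CPM). Lung FAP 5, with the next highest sum (118 CPM), had the highest Tbx20 of them (12.5 CPM). The part of heart muscle RNA in the Tbx20 level was not tested.

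Tbx1, the T-box gene of the pharyngeal arches, was low throughout. It had 6, 5, 4 and 0 reads in muscle FAPs 2 to 5, which gave 0.175, 0.148, 0.115 and 0 CPM (0.109 ± 0.0769). In lung FAPs 1 to 5 its level was 0.430, 0.913, 2.77, 0.133 and 0.481 CPM (0.945 ± 1.06). In MEFs 1 to 4 it was 0.703, 1.02, 1.499 and 0.717 CPM (0.984 ± 0.373). Lung FAP 3, the library rich in lung epithelial RNA, was the highest, and lung FAP 4 fell within the muscle libraries. Tbx1 was 8.996-fold lower in muscle FAPs than in MEFs (log2 difference -3.13, SE 0.54, edgeR adjusted p = 0.00532), with no overlap. It was 8.64-fold lower in muscle than in lung FAPs (-3.07, SE 0.80, edgeR adjusted p = 0.00919). That difference was -2.13 without lung FAP 3 (edgeR adjusted p = 0.0271) and -1.65, no longer called, without lung FAPs 2 and 3 (edgeR adjusted p = 0.0844). Between lung FAPs and MEFs it was -0.06 (SE 0.69, edgeR adjusted p = 0.949), and -0.99 without lung FAP 3 (edgeR adjusted p = 0.172). The part of epithelial RNA in the Tbx1 level was not tested.

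To set the genes against each other within a group, levels were divided by exon length (CPM per kb). In muscle FAPs, Tbx15 led with 48.0 CPM per kb (SD 13.4), followed by Tbx3 (5.30), Tbx18 (4.92), Tbx2 (3.56), Tbx4 (2.95), Tbx5 (2.23), Tbx1 (0.0389) and Tbx20 (0.0177). Only the steps after Tbx15 and after Tbx5 were free of overlap between libraries. In lung FAPs the order was Tbx2 (22.3), Tbx4 (18.6), Tbx5 (8.63), Tbx3 (4.49), Tbx18 (1.84), Tbx20 (0.706), Tbx1 (0.336) and Tbx15 (0.195), and each gene overlapped the next. In MEFs it was Tbx15 (18.9), Tbx18 (6.49), Tbx3 (4.09), Tbx2 (3.77), Tbx4 (3.34), Tbx20 (1.89), Tbx5 (1.08) and Tbx1 (0.350), where Tbx3 overlapped Tbx2 and Tbx2 overlapped Tbx4. The gene at the head of the order in muscle FAPs and MEFs was thus the last in lung FAPs. With the length of the longest coding transcript in place of merged exons the 3 orders were the same, and Tbx20 and Tbx5 then overlapped in MEFs. Overlap here compares ranges over the libraries of a group, not genes within a library. With merged exons, Tbx2 exceeded Tbx4 in each lung library (ratio 1.02 to 1.43), and Tbx4 exceeded Tbx5 (1.41 to 2.70). Tbx3 was below Tbx5 in each lung library (ratio 0.234 to 0.839).

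Tbx15 made up 70.9 ± 4.48% of the summed level per kb of the 8 genes in muscle FAPs (64.7 to 75.2%), 47.2 ± 5.44% in MEFs and 0.348% in lung FAPs. Tbx2 made up 37.2 ± 4.88%, Tbx4 32.4 ± 3.24% and Tbx5 16.2 ± 3.84% in lung FAPs. In muscle FAPs these 3 genes held 5.47%, 4.63% and 3.28%. Tbx18 held 16.3 ± 0.501% in MEFs, 7.39% in muscle FAPs and 4.04% in lung FAPs. The summed level itself was 67.0 ± 14.98 CPM per kb in muscle FAPs, 57.1 ± 27.8 in lung FAPs (35.4 to 103.9) and 39.9 ± 1.31 in MEFs. The ranges of the sum overlapped between muscle and lung FAPs, while the shares of Tbx15 did not.

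**Figure D3:**
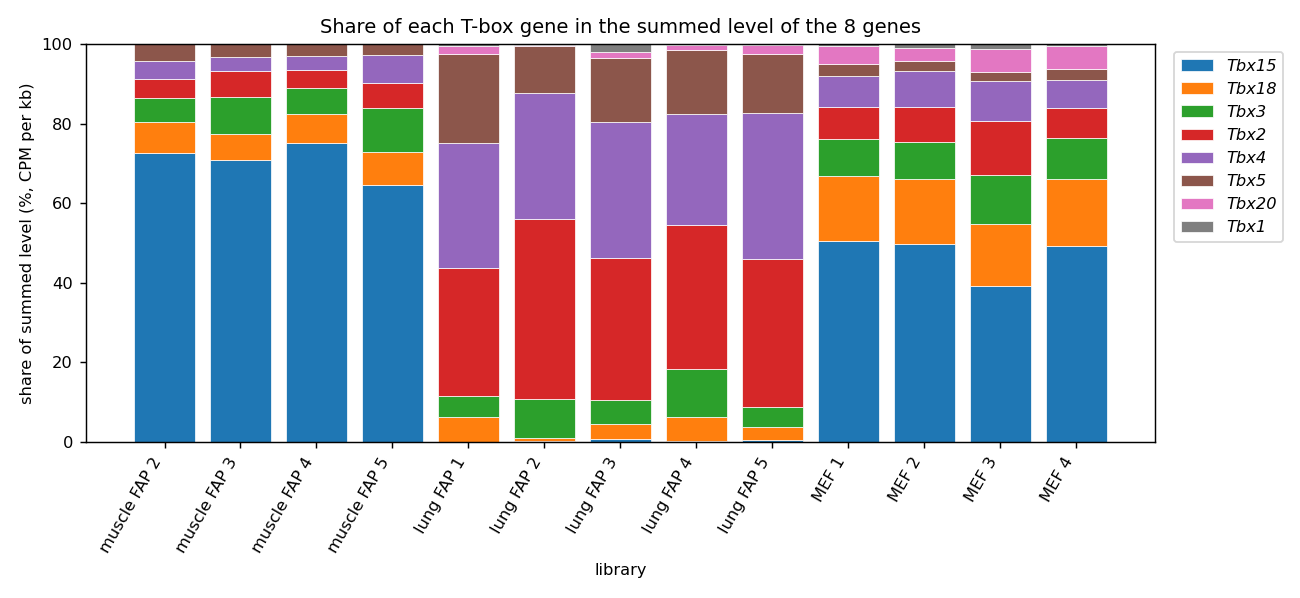
Share of each T-box gene in the summed level of the 8 genes (%, CPM per kb of exon), 1 stacked bar per library. Tbx15 (blue) fills 64.7 to 75.2% of the muscle FAP bars and 39.1 to 50.6% of the MEF bars, while Tbx2 (red), Tbx4 (purple) and Tbx5 (brown) fill most of the lung FAP bars.

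The lung libraries varied among themselves in a set of these genes. Lung FAP 2 had the highest Tbx2, Tbx3, Tbx4 and Tbx5 of the 5, at 2.92, 3.34, 2.18 and 1.57 times the mean of the other 4 libraries. It had the lowest Tbx18 and Tbx20, 2.603-fold and 3.69-fold below that mean, and its Tbx1 and Tbx15 lay within the range of the others. The same library had the highest summed pericyte and smooth muscle markers (2158 CPM, against 562 to 1492 CPM in the other lung libraries) and endothelial markers (573 CPM). The lowest Tbx4 (33.7 CPM) and the lowest pericyte and smooth muscle sum were both in lung FAP 4, whose FAP marker sum was the highest of the group (8807 CPM). Of the 10 pericyte and smooth muscle markers, 8 were lower in muscle than in lung FAPs, 1 higher and 1 not called. Of all genes, 48.2% were called in that comparison (25% lower, 23.2% higher). In lung FAPs against MEFs, 6 markers were higher, 2 lower and 2 not called, where 74.4% of all genes were called (37.8% higher, 36.6% lower). The marker sum was still higher in MEFs (2076 to 3690 CPM), where Acta2 alone had a mean of 2498 CPM. With lung FAP 2 left out, lung FAPs still had a mean Tbx2 of 58.4 ± 16.8 CPM and a mean Tbx4 of 51.3 ± 18.1 CPM, above all muscle libraries. The part of pericyte, smooth muscle and endothelial RNA in these levels was not tested.

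Tbx2 and Tbx4, the neighbours on chromosome 11, kept nearly the same ratio in all groups. Mean Tbx2 over mean Tbx4 was 1.21 in muscle FAPs (0.909 to 1.77 in single libraries), 1.20 in lung FAPs (1.02 to 1.43) and 1.13 in MEFs (0.976 to 1.37), with overlapping ranges. Tbx3 and Tbx5, the neighbours on chromosome 5, did not: Tbx3 over Tbx5 was 2.37 in muscle FAPs (1.42 to 4.09), 0.520 in lung FAPs (0.234 to 0.839) and 3.78 in MEFs (3.10 to 5.18). For the related pairs on different chromosomes, Tbx2 over Tbx3 was 0.671 in muscle FAPs, 4.97 in lung FAPs (2.96 to 7.43) and 0.920 in MEFs. Tbx4 over Tbx5 was 1.32 in muscle FAPs (1.02 to 2.62), 2.16 in lung FAPs (1.41 to 2.70) and 3.09 in MEFs (2.38 to 4.20), with overlapping ranges. All of these are ratios of levels divided by exon length (CPM per kb).

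A non-coding gene near each pair was also higher on average in lung FAPs than in the other groups. The non-coding genes that RefSeq lists within 20 kb of Tbx3 and Tbx5 were not in the count table. The lncRNA 2610027K06Rik ends 226 bases before Tbx2 by RefSeq and was singled out after its values were seen. Its level was 0.408, 0.325, 0.201 and 0.539 CPM in muscle FAPs 2 to 5, and 0.458, 4.91, 1.49, 1.53 and 1.81 CPM in lung FAPs 1 to 5. In MEFs it was at 0.106 to 0.250 CPM. Lung FAP 1 lay within the muscle libraries and lung FAP 2 was the highest. The log2 difference was -2.46 in muscle against lung FAPs (edgeR adjusted p = 0.00354), 3.68 in lung FAPs against MEFs (edgeR adjusted p = 0.0001) and 1.22 in muscle FAPs against MEFs (edgeR adjusted p = 0.1). The lncRNA AW549542, the nearest named RefSeq gene on the lower side of Tbx3 at 90175 bases, was at 0.437, 0.296, 0.317 and 0.150 CPM in muscle FAPs. It was at 2.41, 12.1, 5.39, 4.09 and 5.99 CPM in lung FAPs 1 to 5 and at 0.0242 to 0.136 CPM in MEFs. All lung libraries were above all others, unlike Tbx3 itself. The differences were -4.30 in muscle against lung FAPs (edgeR adjusted p = 1.12e-05), 6.22 in lung FAPs against MEFs (edgeR adjusted p = 1.84e-07) and 1.92 in muscle FAPs against MEFs (edgeR adjusted p = 0.0107).

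The coding neighbours moved less or in other directions. Bcas3, 6556 bases from Tbx2, had means of 16.6, 26.3 and 14.6 CPM in muscle FAPs, lung FAPs and MEFs, with log2 differences of -0.66 (muscle minus lung, edgeR adjusted p = 0.00487) and 0.84 (lung minus MEF, edgeR adjusted p = 0.000377). Rbm19, 231292 bases from Tbx5, was lowest in lung FAPs, at 19.3, 11.3 and 50.9 CPM in the same order. Wars2, the mitochondrial tryptophan tRNA synthetase 19117 bases from Tbx15, had means of 9.31, 7.87 and 9.82 CPM, and its muscle minus lung difference was 0.24 (edgeR adjusted p = 0.13) where that of Tbx15 was 7.94. Gnb1l, 14298 bases from Tbx1, had 2.56 and 2.62 CPM in muscle and lung FAPs (-0.03, edgeR adjusted p = 0.944). Its MEF mean was 6.32 CPM, and muscle FAPs were lower than MEFs (-1.31, edgeR adjusted p = 0.00121), as for Tbx1 (-3.13). Lung FAPs were lower than MEFs too (-1.275, edgeR adjusted p = 0.00082), unlike for Tbx1 (-0.06). Gp1bb, the neighbour of Tbx1 on the other side, was also lower in muscle FAPs than in MEFs (-0.90, edgeR adjusted p = 0.012).

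**Figure D4:**
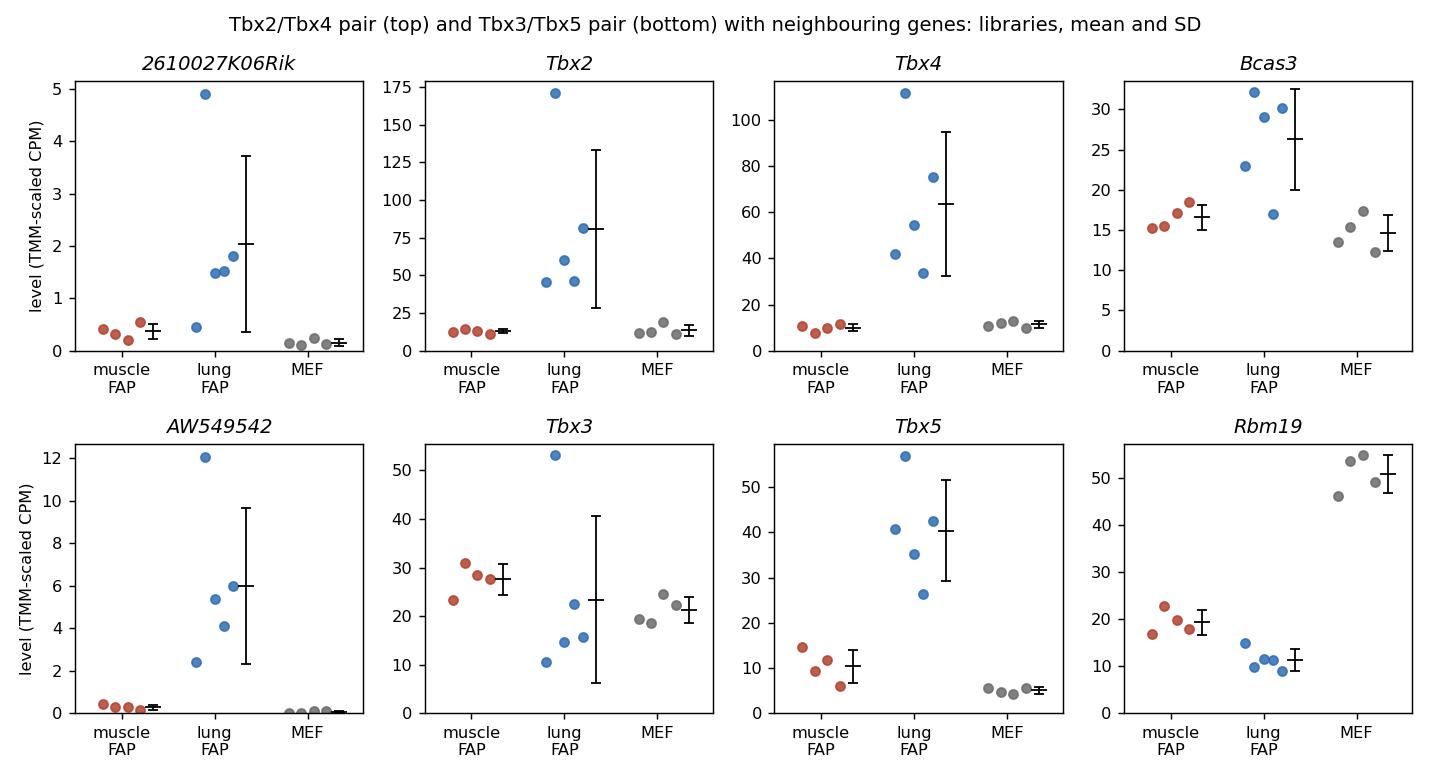
Levels (TMM-scaled CPM, linear axes from 0 that differ between panels) of Tbx2 and Tbx4 with the neighbours 2610027K06Rik and Bcas3 (top row) and of Tbx3 and Tbx5 with the neighbours AW549542 and Rbm19 (bottom row), as single libraries with group mean and SD. Lung FAPs (blue) are highest in the panels of Tbx2, Tbx4, Tbx5 and AW549542, and lowest in that of Rbm19.

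The genes most like each T-box gene over the 13 libraries were found by Pearson's r of log2 CPM among 12500 genes, as a description, since the libraries of a group share tissue and makeup. Tbx2 was most like Tbx4 (r = 0.979) and Limch1 (0.971), an actomyosin regulator. Tbx4 was most like Timp4 (0.993), an inhibitor of matrix metalloproteinases, and again Limch1 (0.983). Timp4 was at 0 to 0.150 CPM in muscle FAPs, 2.55, 15.04, 3.66, 1.79 and 8.12 CPM in lung FAPs 1 to 5, and 0.0614 to 0.227 CPM in MEFs. The order of the lung libraries was the same for Timp4 as for Tbx4, with lung FAP 2 at the top and lung FAP 4 at the bottom.

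Tbx15 was most like Shox2 (0.988), a homeobox gene of the proximal limb, which was at 14.4 to 25.2 CPM in muscle FAPs, 0 to 1.17 CPM in lung FAPs and 7.21 to 10.6 CPM in MEFs. Its other match was Tsc22d2 (0.979). Tbx20 was most like Lrp2 (0.989), the endocytic receptor megalin, at 0.115 to 0.329 CPM in muscle FAPs, 15.5 to 55.8 CPM in lung FAPs and 73.8 to 128 CPM in MEFs, and like the Wnt receptor gene Fzd2 (0.98). Tbx5 was most like Zfp445 (0.981) and Egflam (0.98), Tbx18 like Urb2 (0.978) and Igf2bp2 (0.958), and Tbx3 like Ehd4 (0.926) and Hilpda (0.88). The matches of Tbx3 were the weakest, and Tbx1, under 1 CPM on average in each group, was not matched.

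Of the 9 other T-box genes in the table, 3 passed the filter (Tbx6, Eomes and Mga). Mga, a Max-binding factor with a T-box, was the most abundant of them at 112 ± 8.36, 86.0 ± 18.1 and 72.1 ± 12.0 CPM in muscle FAPs, lung FAPs and MEFs. It was called higher in muscle than in lung FAPs (log2 difference 0.38, edgeR adjusted p = 0.0381). This was the 1 call of 3 in that comparison, where 48.2% of all genes were called. Against MEFs, muscle FAPs had 2 higher (Mga and Tbx6) and 1 lower (Eomes) of 3, where 73.5% of all genes were called. Lung FAPs had 1 higher (Tbx6), 1 lower (Eomes) and 1 not called against MEFs, where 74.4% of all genes were called. Tbx6, known in the presomitic mesoderm, was at 2.94, 2.14 and 0.0614 CPM (muscle minus MEF 5.52, edgeR adjusted p = 6e-07). Eomes, known in the early embryo and in lymphocytes, was at 0.102, 0.160 and 12.9 CPM (muscle minus MEF -6.93, edgeR adjusted p = 5.03e-06). The 6 others (T, Tbx10, Tbx19, Tbx21, Tbx22 and Tbr1) were at means of at most 0.207 CPM in every group.

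Of 21 cofactors and partner transcription factors, 19 were tested. In muscle against lung FAPs, 6 were higher, 6 lower and 7 not called (48.2% of all genes were called, 23.2% higher and 25% lower), with a median log2 difference of 0.44. Pitx1, which acts upstream of Tbx4 in the hindlimb, was at 3.35 CPM in muscle FAPs, 0.133 CPM in lung FAPs and 14.3 CPM in MEFs (muscle minus lung 4.59, edgeR adjusted p = 0.000278), lowest in lung FAPs, where Tbx4 was highest. Gata6, a zinc finger factor of heart and lung, was at 8.05, 49.6 and 8.29 CPM (-2.62, edgeR adjusted p = 4.42e-06), higher in lung FAPs as Tbx4 was. Gata4, a partner of Tbx5 and Tbx20 in the heart, had 1 read in all muscle libraries and means of 3.83 CPM in lung FAPs and 2.16 CPM in MEFs. The Groucho corepressor gene Tle4 was at 50.5, 12.6 and 27.6 CPM (2.002, edgeR adjusted p = 1.38e-08), in the group order of Tbx15.

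In muscle FAPs against MEFs, 6 of these 19 partners were higher, 10 lower and 3 not called (median -0.42), where 73.5% of all genes were called. In lung FAPs against MEFs, 6 were higher, 11 lower and 2 not called (median -0.61), where 74.4% of all genes were called. Hand2, a limb and heart factor, was at 1.06, 0.774 and 11.95 CPM in muscle FAPs, lung FAPs and MEFs, and was lower in both FAP groups than in MEFs (-3.50, edgeR adjusted p = 0.000127, and -3.95, edgeR adjusted p = 2.16e-05).

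A list of 23 genes reported as T-box targets or as ligands in T-box circuits had 20 tested. Fgf10, the growth factor gene activated by Tbx5 in limb and lung mesenchyme, was at 13.8, 55.5 and 10.3 CPM in muscle FAPs, lung FAPs and MEFs. It was lower in muscle than in lung FAPs (log2 difference -2.00, edgeR adjusted p = 4.35e-07) and higher in lung FAPs than in MEFs (2.42, edgeR adjusted p = 9.69e-09), as Tbx4 and Tbx5 were. Wnt2 and Wnt2b, the lung mesenchymal ligands, were also higher in lung than in muscle FAPs, at 7.02 against 18.3 CPM (-1.38, edgeR adjusted p = 0.000644) and at 3.36 against 101 CPM (-4.92, edgeR adjusted p = 7.67e-09). Over the list, 8 genes were higher in muscle than in lung FAPs, 5 lower and 7 not called, where 48.2% of all genes were called (23.2% higher, 25% lower). The median was -0.07, against -0.04 over all genes.

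Several targets of Tbx2 and Tbx3 known from repression were measured as well. Gja1, the gap junction gene for connexin 43, was at 946, 336 and 254 CPM (muscle minus lung 1.49, edgeR adjusted p = 0.000152). Cdkn1a, the cell cycle inhibitor p21, was at 321, 201 and 1176 CPM (muscle minus lung 0.68, edgeR adjusted p = 0.00625). Both were higher in muscle than in lung FAPs. Gja5, the gene for another connexin, went the other way: it had 3 reads in all muscle libraries and means of 6.59 CPM in lung FAPs and 1.57 CPM in MEFs, and was called lower in muscle than in lung FAPs (edgeR adjusted p = 1.03e-07). Nppa, Smad6, Cdh1, Frzb and Shisa3, of the same list, were not called between muscle and lung FAPs. In muscle FAPs against MEFs, which were not called different in Tbx2, Gja1 was higher (1.90, edgeR adjusted p = 1.16e-05) and Cdkn1a lower (-1.87, edgeR adjusted p = 5.15e-07). Cdkn2a, another cell cycle inhibitor, was at 0.235, 0.0831 and 51.3 CPM. The limb ligands Bmp4 (199.5, 56.7 and 19.9 CPM) and Bmp2 (158, 19.0 and 4.93 CPM) were highest in muscle FAPs, then lung FAPs, then MEFs, and each difference passed the test. In muscle FAPs against MEFs, 9 of the 20 genes were higher, 9 lower and 2 not called (median 0.19), where 73.5% of all genes were called. In lung FAPs against MEFs 10 were higher, 6 lower and 4 not called, where 74.4% of all genes were called (median 1.72, against 0.02 over all genes).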

How the data were processed

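RNA sequencing of 13 mouse libraries was used: 4 of muscle FAPs, 5 of lung FAPs and 4 of MEFs. The deposited table holds whole-number read counts per gene, not normalized, for 23418 gene symbols. Reads were handled with Bowtie2 2.1.0.0, HTSeq and edgeR on the mm10 build, per the submitters' processing notes. The sources used here do not give the annotation or the strand setting of the counting. Total counts per library were 28636183 to 44699463, so a level of 3 counts in a library lay between 0.0614 and 0.0997 CPM, and intervals or floors of this kind cover counting error only. No column of another sample was present, and no pair of libraries agreed within sampling noise.

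Counts were scaled by TMM (trimmed mean of M-values), filtered with filterByExpr (15412 genes kept) and tested with edgeR 4.0.16 (glmQLFit and glmQLFTest, robust, 1 fit of all 13 libraries, group as the only term, R 4.3.3). Benjamini-Hochberg adjustment ran over all 15412 genes, and a gene was called at an adjusted p under 0.05. Levels are TMM-scaled CPM, given as mean ± SD. The SE beside a log2 difference comes from the spread of log2 CPM between libraries within the compared groups. It is not the SE of the edgeR fit that gave the difference and its p-value. Levels of different genes were compared per kilobase of merged exons of coding transcripts (GENCODE M21, GRCm38, the same assembly as mm10). DESeq2 1.42.0, limma 3.58.1 (voom with sample weights), other scalings and filters, a replicate block and leaving out libraries were the alternatives.

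The genes named are the 8 T-box genes, the 2 named genes most like each by Pearson correlation of log2 CPM (prior count 2, mean of at least 1 CPM), their nearest named neighbours, and examples from lists whose counts are given whole. The T-box genes and the lists were chosen with earlier results of these data known.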

Additional observations from a re-analysis of the deposited data

Results flagged for a closer look

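Within groups, a single library stood apart for 3 of the 38 combinations of T-box gene and group that held at least 10 reads and were examined. The gap between the extreme library and its nearest neighbour was compared with the whole range of the group at Dixon's 95% critical value, which chance alone passes in about 1 in 20 groups. Tbx2 was at 171 CPM in lung FAP 2, with the next library at 81.5 and the lowest at 45.7 CPM. Tbx3 was at 53.1 CPM in the same library, with the next at 22.5 and the lowest at 10.7 CPM. Tbx2 was at 19.1 CPM in MEF 3, with the next library at 12.5 and the lowest at 11.3 CPM. MEF 3 also had the highest summed level of pericyte and smooth muscle markers among the MEFs, as lung FAP 2 had among the lung FAPs. The part of other cell types in these values was not tested.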

How the results depend on the processing

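The number of T-box genes called stayed between 7 and 8 in muscle against lung FAPs, between 3 and 6 in muscle FAPs against MEFs and between 6 and 7 in lung FAPs against MEFs over all alternatives that were run. All genes called numbered 6355 to 9178, 10583 to 12523 and 10650 to 12075. Of 416 recomputed log2 differences of single T-box genes, 391 kept their direction and side of the threshold, 8 passed it newly, 5 lost it and 12 changed sign. Of 152 recomputed group levels, 8 moved by more than 1 SD, each with library size alone. Each change of sign was in a difference that did not pass the test with all libraries. With library size alone, Tbx3 went to -0.22 in muscle against lung FAPs and to -0.20 in muscle FAPs against MEFs. In limma, Tbx2 went to 0.10 in muscle FAPs against MEFs, and Tbx3 to -0.17 in lung FAPs against MEFs. Leaving out lung FAPs 2 and 3 together, an alternative chosen after seeing the data, took the latter to -0.39. Leaving out single libraries gave -0.45 to 0.32 for Tbx3 and -0.99 to 0.21 for Tbx1 in lung FAPs against MEFs, and -0.18 to 0.10 for Tbx2 in muscle FAPs against MEFs. The cause of these changes was not tested. With replicate number as a block, 7, 3 and 6 T-box genes were called in the 3 comparisons (6805, 10817 and 11121 of all genes), and Tbx3 in lung FAPs against MEFs was at -0.0195. Deviations from the group mean were weakly correlated between libraries of the same number (11 pairs, r from -0.0484 to 0.0612, median 0.0286). For libraries of different number r was -0.112 to 0.0871 (45 pairs, median -0.0041). A weak correlation cannot exclude a shared animal or batch, so whether the numbers pair libraries is not known. Depth limits Tbx1 and Tbx20 in muscle FAPs and Tbx15 in lung FAPs, where a library held at most 42 reads.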
